A study of Homo sapiens with 60 samples.

Results

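The genes described here are 10 members of the unfolded protein response of the endoplasmic reticulum (ER): HSPA5, HSP90B1, PDIA4, SDF2L1, DNAJB9, CRELD2, HERPUD1, XBP1, ERN1 and ERN2. They were taken from the count table by their Ensembl identifiers, as 10 of its 60675 genes, and all 10 passed the filter on low counts that left 17049 genes for testing. The libraries came from HT29, a long-established line of epithelial cells from a human colorectal adenocarcinoma, kept for 24 h with a water extract of a medicinal herb or formula, or with vehicle. Extracts of 2 single herbs (Menthae Herba and Saposhnikoviae Radix) and of 4 formulas (Saengmaek-san, Guibi-tang, Soyo-san and Okbyeongpung-san) had 3 libraries at each dose, and the formula Soshiho-tang had 1 library per dose. Per the sample labels the doses were low (20 µg/mL), medium (100 µg/mL) and high (500 µg/mL). Vehicle, with 3 libraries, was 0.1% DMSO in those labels and 2% DMSO in the study's design text. The labels give no DMSO percentage for the extract libraries, so whether vehicle and extracts differ in solvent is not known. The design text also describes lower series set by toxicity for some extracts, and the labelled doses were used here. All groups share the same cell line, and the labels do not say whether libraries of a group came from separate cultures. The p-values therefore rest on the spread among libraries of a group, and part or all of it may be technical.

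Secreted and membrane proteins fold in the ER, and unfolded chains that collect there are sensed by IRE1, PERK and ATF6 in its membrane. Active IRE1 splices the mRNA of XBP1, while ATF6 is cut to a soluble factor. Both factors raise chaperones, oxidoreductases and degradation proteins, in part through a promoter element called the ER stress response element (ERSE). In the intestine the response carries the load of mucus secretion, and IRE1β, a second form of IRE1, is found in mucous epithelia.

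Among the folding proteins, HSPA5 (chr9:125234853-125241330, minus strand) encodes BiP, the Hsp70 chaperone of the ER. HSP90B1 (chr12:103930107-103953645, plus strand) encodes GRP94, the Hsp90 chaperone of the ER. PDIA4 (chr7:149003062-149028641, minus strand) encodes a protein disulfide isomerase. SDF2L1 (chr22:21642261-21644298, plus strand) and DNAJB9 (chr7:108569568-108574850, plus strand) encode partners of BiP, the second one with a J domain. CRELD2 (chr22:49918167-49927540, plus strand) encodes a cysteine-rich protein of the ER that stress induces. HERPUD1 (chr16:56932048-56944863, plus strand) encodes a membrane protein of ER-associated degradation, the path that returns misfolded chains to the proteasome. XBP1 (chr22:28794555-28800597, minus strand) encodes the factor whose mRNA IRE1 splices, and counts per gene do not separate its spliced from its unspliced form. ERN1 (chr17:64039142-64130819, minus strand) encodes IRE1α, and ERN2 (chr16:23690326-23713500, minus strand) encodes IRE1β. All 10 are protein-coding genes, with positions of GENCODE release 29 on GRCh38.

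The promoters are shown for the letters of the element through which ATF6 and XBP1 are known to act. ERSE was searched as CCAAT and CCACG parted by 9 bases, ERSE-II as ATTGG, any 1 base and CCACG, and the core that XBP1 is known to bind (UPRE) as TGACGTGG. Both strands of the 250 bases before each RefSeq gene start (GRCh38.p14) were read, for the 9 members that had a window in the table. ERSE was found in HSPA5, HSP90B1, XBP1 and CRELD2, against 26 of 35116 windows in the whole table (0.074%). ERSE-II was found in HERPUD1 and SDF2L1, against 18 windows (0.0513%). Neither was found in the windows of DNAJB9, PDIA4 and ERN1, and no member window held the UPRE core, which 215 windows (0.612%) held. The element CCACG alone, which lies inside both ERSE forms, is in 33.5% of all windows. Below, capitals mark ERSE or ERSE-II in stretches limited to bases outside the annotated gene (SDF2L1 carries it on the other strand). They are HSPA5 (chr9:125241344-125241593, minus strand), HERPUD1 (chr16:56931892-56932047, plus strand), SDF2L1 (chr22:21642052-21642260, plus strand) and XBP1 (chr22:28800598-28800819, minus strand), each read 5′ to 3′ along its gene.
HSPA5: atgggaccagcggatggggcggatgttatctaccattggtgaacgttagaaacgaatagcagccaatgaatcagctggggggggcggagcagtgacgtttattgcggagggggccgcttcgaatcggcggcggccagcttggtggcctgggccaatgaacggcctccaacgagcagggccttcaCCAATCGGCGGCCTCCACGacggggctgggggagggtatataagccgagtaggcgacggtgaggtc
HERPUD1: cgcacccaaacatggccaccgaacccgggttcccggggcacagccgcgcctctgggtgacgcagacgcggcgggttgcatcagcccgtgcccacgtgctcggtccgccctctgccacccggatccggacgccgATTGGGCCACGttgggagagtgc
SDF2L1: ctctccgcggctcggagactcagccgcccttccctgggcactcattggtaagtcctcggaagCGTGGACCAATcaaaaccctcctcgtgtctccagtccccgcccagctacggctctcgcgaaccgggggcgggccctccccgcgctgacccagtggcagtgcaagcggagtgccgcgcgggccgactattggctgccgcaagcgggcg
XBP1: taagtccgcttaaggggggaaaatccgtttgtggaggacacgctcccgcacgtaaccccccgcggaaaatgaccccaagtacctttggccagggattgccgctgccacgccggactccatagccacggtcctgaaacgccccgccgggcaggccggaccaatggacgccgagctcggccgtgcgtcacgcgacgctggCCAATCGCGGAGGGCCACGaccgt
HSP90B1 held 2 copies of ERSE and CRELD2 held 1, and these are given as the 19 matching bases, since their windows run into the annotated genes. The upstream copy of HSP90B1 lies at chr12:103930216-103930234 on the plus strand and the downstream copy at chr12:103930321-103930339 on the minus strand. That of CRELD2 lies at chr22:49918554-49918572 on the minus strand. Capitals mark the CCAAT and CCACG ends.
HSP90B1, upstream copy: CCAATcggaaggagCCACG
HSP90B1, downstream copy: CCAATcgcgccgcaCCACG
CRELD2: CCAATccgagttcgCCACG
In HSPA5 the ERSE spans bases 66 to 48 before the start, and in XBP1 bases 52 to 34. CRELD2 carries its copy at bases 80 to 62 on the other strand, and HSP90B1 has bases 194 to 176 on its own strand and 89 to 71 on the other. The 11-base ERSE-II lies at bases 117 to 107 in HERPUD1 and at 188 to 178, on the other strand, in SDF2L1. A match describes the letters only, and none of these libraries measured binding to them.

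**Figure D1:**
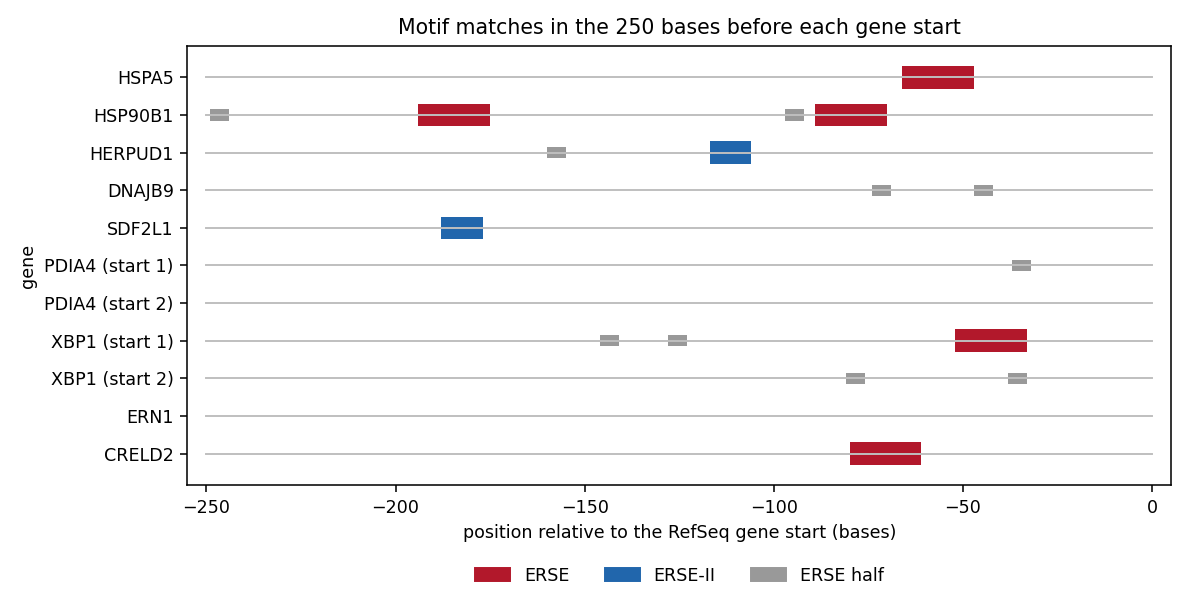
Position of each match in the 250 bases before the RefSeq start (x axis, bases; 0 is the start) for the 9 members with a window, PDIA4 and XBP1 having 2 starts each. Red boxes are ERSE, blue boxes ERSE-II and grey boxes CCACG alone: HSP90B1 shows 2 red boxes, HSPA5, XBP1 and CRELD2 show 1 each, and HERPUD1 and SDF2L1 show 1 blue box each.

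Total counts per library, in units of 1e6, were between 19.5 and 41.9 (median 29.2). The lowest count of a member in any of the 60 libraries was 168 (DNAJB9), so each value rests on over 100 counts. Mitochondrially encoded genes took 9.74% to 13.9% of counts, and 12.8% to 13.5% in vehicle. Of 12 colon epithelial markers 11 averaged at least 1 CPM, with CDX1 below that, and the lists for other cell types were mixed. Of 8 leukocyte markers 4 stayed under 0.1 CPM in all libraries (PTPRC, CD3E, MS4A1 and NKG7), while CD14 and LYZ averaged at least 1 CPM. Of 6 plasma cell markers 2 stayed under 0.1 CPM (JCHAIN and TNFRSF17), while MZB1, SDC1 and PRDM1 averaged at least 1 CPM. Of 8 fibroblast markers COL3A1 and PDGFRA stayed under 0.1 CPM and COL1A1 averaged at least 1 CPM, and of 6 endothelial markers CDH5 and KDR were under 0.1 CPM and PECAM1 and ESAM at least 1 CPM. The libraries fall into 31 with earlier and 29 with later numbers, parted by the sign of the first principal component, which changed once along the numbering. What this numbering stands for is not given in the labels. Vehicle, Menthae Herba and Saposhnikoviae Radix are all earlier, Soyo-san, Okbyeongpung-san and Soshiho-tang are all later, and Saengmaek-san and Guibi-tang have libraries in both. A term for the 2 parts was therefore added to the fit as an alternative, and it can be estimated from Saengmaek-san and Guibi-tang alone.

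In vehicle the chaperones made up the largest part of the set. Per kilobase of exon, HSP90B1 stood at 138 CPM, PDIA4 at 119 CPM and HSPA5 at 116 CPM, and XBP1 followed with 72 CPM. SDF2L1 (9.31 CPM per kilobase), HERPUD1 (7.04), ERN2 (3.85), DNAJB9 (3.38), CRELD2 (3.25) and ERN1 (1.3) were far lower, so that ERN2 exceeded ERN1 in this line. Over the 57 libraries of the groups of 3, levels moved little. HSPA5 ranged from 414 to 531 CPM (median 457), HSP90B1 from 600 to 813 CPM (median 695) and PDIA4 from 374 to 466 CPM (median 409). The widest ratio of the highest to the lowest group mean was 1.35 (ERN2) and the narrowest 1.1 (XBP1). When the 19 group means of a gene are put in order, neighbours differ beyond their SDs in 2 of 18 pairs for HERPUD1, in 1 of 18 for HSPA5 and for ERN2, and in none for the other 7 genes. Vehicle stood at opposite ends for different members: it had the lowest of 19 means for SDF2L1 (10.2 ± 0.634 CPM, SD, n = 3), the second lowest for HSP90B1, PDIA4 and CRELD2, the highest for XBP1 (218 ± 4.84 CPM) and the second highest for HERPUD1 (36.3 ± 0.138 CPM).

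**Figure D2:**
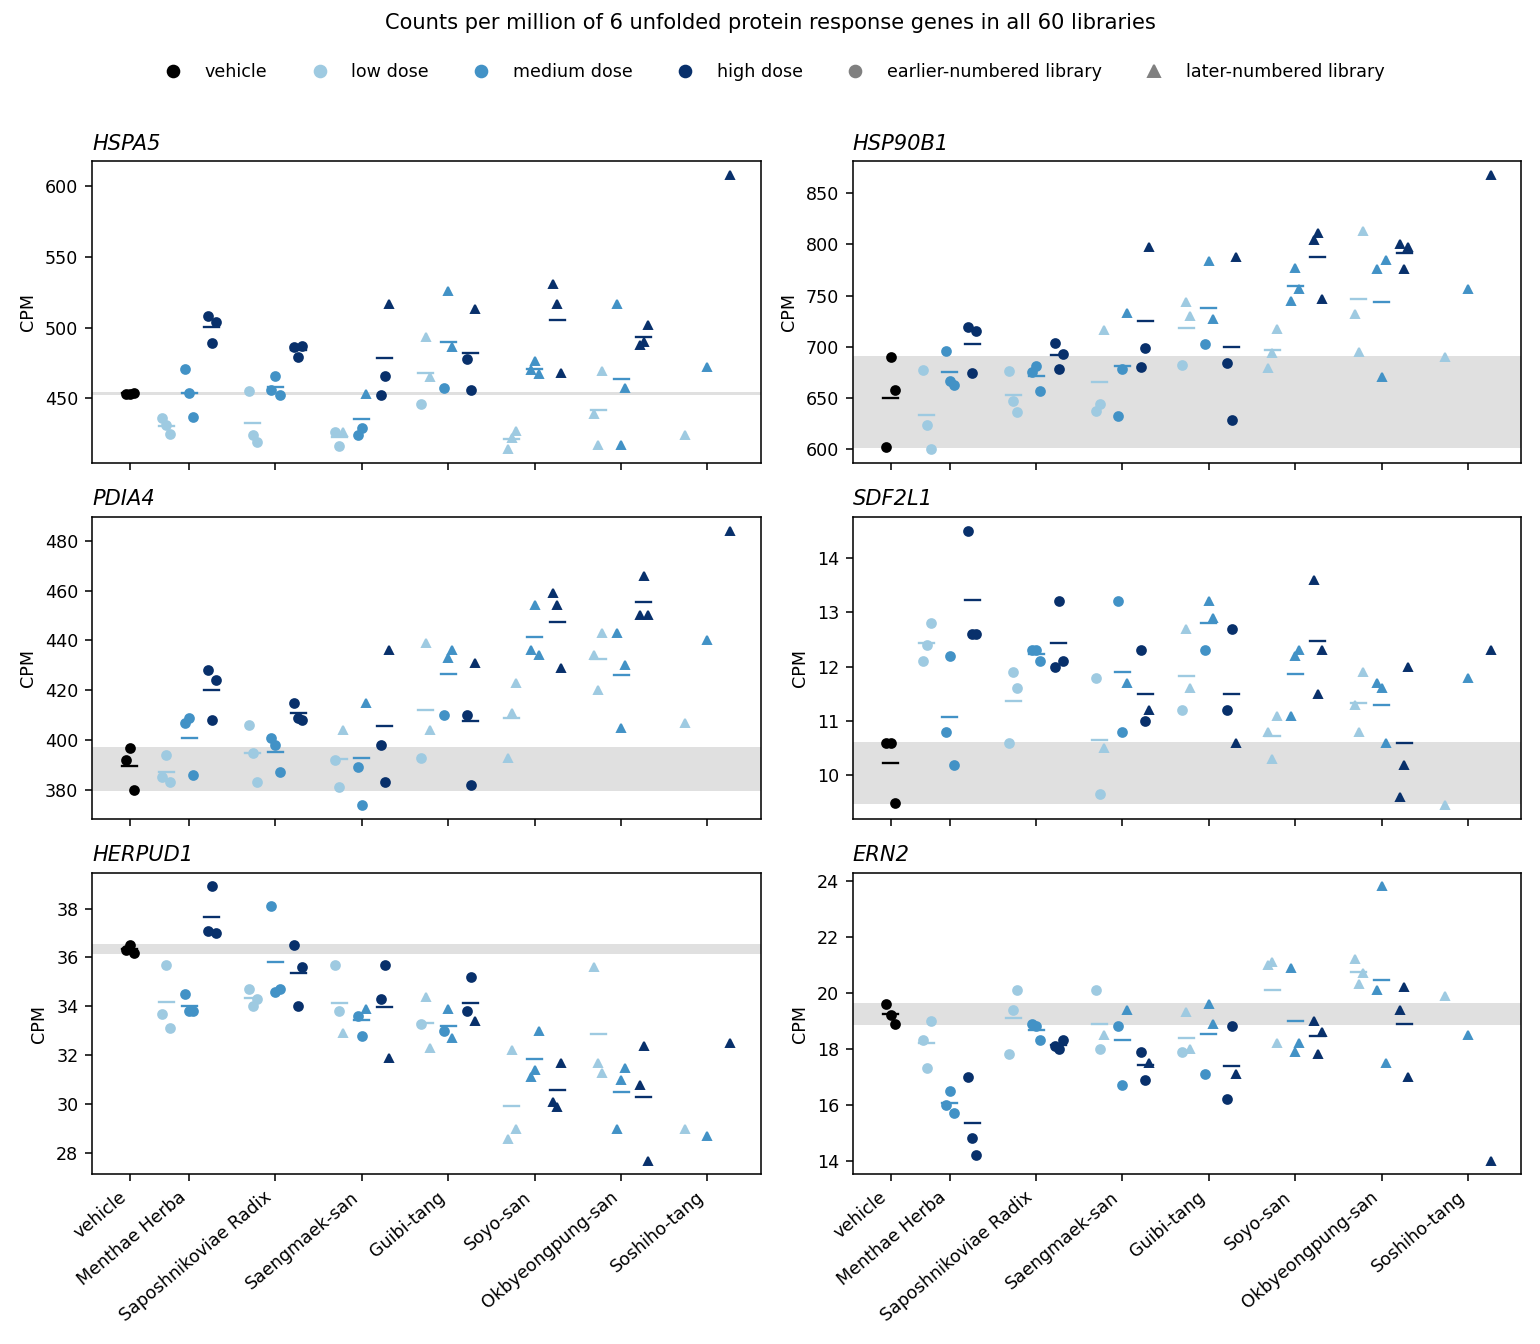
CPM (y axis, not starting at 0) of 6 members in each of the 60 libraries, by extract with vehicle at the left and doses from low to high. Points are libraries (circles earlier-numbered, triangles later-numbered), short lines are group means and the grey band is the vehicle range. HSPA5 is higher at the high than at the low dose with no overlap in 5 of 6 extracts, HERPUD1 is low in Soyo-san and Okbyeongpung-san, ERN2 is low in Menthae Herba at the medium and high dose, and the single Soshiho-tang high-dose library tops HSPA5 (608 CPM), HSP90B1 (868 CPM) and PDIA4 (484 CPM).

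The clearest pattern was a higher level of HSPA5 at the high than at the low dose within extracts. At the low dose its means were 431 CPM in Menthae Herba, 433 in Saposhnikoviae Radix, 423 in Saengmaek-san, 421 in Soyo-san and 442 in Okbyeongpung-san. These lay below the vehicle mean of 453 CPM, while Guibi-tang had 468 CPM. The difference between doses is therefore not the same as a rise over vehicle, for which HSPA5 was called in 1 of 18 comparisons. In Menthae Herba HSPA5 had 508, 489 and 504 CPM at the high dose, against 436, 431 and 425 CPM at the low dose. Soyo-san gave 531, 517 and 468 CPM at the high dose, against 414, 422 and 427 CPM at the low dose. In both extracts every high-dose library lay above every low-dose one. These were the 2 extracts in which HSPA5 passed the test of its own dose contrast, as 1 of the 10 genes each time. It rose by 0.22 on the log2 scale in Menthae Herba (SE 0.05, adjusted p = 0.0131, edgeR's quasi-likelihood test), where 2.36% of all genes passed, and by 0.26 in Soyo-san (SE 0.05, adjusted p = 0.0219), where 0.129% passed. The Menthae Herba call was lost without high-dose replicate 1 or 3 or low-dose replicate 2 or 3, with adjusted p up to 0.0739. The Soyo-san call was kept only without high-dose replicate 3 (adjusted p = 0.00123), since each of the other 5 refits lost it, with adjusted p up to 0.347.

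The remaining extracts gave HSPA5 differences of the same sign that did not pass their own tests. Saposhnikoviae Radix had 486, 479 and 487 CPM at the high dose, against 455, 424 and 419 CPM at the low dose (log2 0.16). Okbyeongpung-san had 488, 490 and 502 CPM at the high dose, against 439, 417 and 469 CPM at the low dose (log2 0.16). Saengmaek-san had 452, 466 and 517 CPM at the high dose, against 426, 416 and 426 CPM at the low dose (log2 0.18). The 2 doses were apart in these 3 extracts, and the share of all genes apart in this way was not counted. In Guibi-tang they overlapped, with 478, 456 and 513 CPM at the high dose, against 446, 493 and 465 CPM at the low dose (log2 0.04). None of the 10 genes was called by edgeR in these 4 contrasts, where 0.0293% (Saposhnikoviae Radix), 0.0235% (Saengmaek-san), 0.352% (Guibi-tang) and 0.00587% (Okbyeongpung-san) of all genes passed. At an unadjusted p under 0.05 there was 1 member in Saposhnikoviae Radix, 3 in Saengmaek-san, 0 in Guibi-tang and 2 in Okbyeongpung-san. Of all 17049 genes, 642, 1287, 1393 and 807 had such a p in these extracts, in that order. DESeq2 called 0 members in each, and 12, 27, 93 and 2 of all genes.

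Because the 6 extracts do not share libraries in their dose contrasts, the mean of the 6 contrasts was tested in the same fit, a test added after the 6 values had been seen. In it 5 of the 10 genes passed, 4 higher and 1 lower at the high dose, against 8.46% of all genes. HSPA5 averaged 491 ± 22 CPM at the high dose and 436 ± 21.6 CPM at the low dose (SD, n = 18 each). It rose by 0.17 on the log2 scale (SE 0.02, adjusted p = 1.26e-07), with a positive difference in 6 of 6 extracts. HSP90B1 had 733 ± 57.3 CPM at the high dose and 686 ± 51.6 CPM at the low dose and rose by 0.10 (SE 0.03, adjusted p = 0.0151). PDIA4 had 424 ± 24.9 CPM at the high dose and 405 ± 19.8 CPM at the low dose and rose by 0.07 (SE 0.02, adjusted p = 0.0118). HSP90B1 and PDIA4 were both higher at the high dose in 5 of 6 extracts, Guibi-tang being the exception.

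DNAJB9, the J-domain partner of BiP, had 10.1 ± 0.617 CPM at the high dose and 9.36 ± 0.856 CPM at the low dose. It rose by 0.12 in the mean contrast (SE 0.03, adjusted p = 0.0172) and was higher at the high dose in 5 of 6 extracts. Its libraries were apart in Menthae Herba, Saengmaek-san (10.1, 10.4 and 10 CPM at the high dose, against 8.69, 8.7 and 9.18 CPM at the low dose) and Soyo-san. With no filter on low counts its adjusted p was 0.0558, and its exons share 99 and 183 bases with PNPLA8 and THAP5 on the other strand. The strand setting of the counting is not given in the sources used here, so reads in those bases cannot be told apart. THAP5 had a log2 difference of 0.04 in the same contrast (adjusted p = 0.405).

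ERN2, the IRE1 form of mucous epithelia, was the member that fell. Its mean over the high-dose libraries was 17.6 ± 1.5 CPM, and over the low-dose libraries 19.2 ± 1.28 CPM. It fell by 0.13 on the log2 scale (SE 0.03, adjusted p = 0.00497), with a negative difference in 6 of 6 extracts, between -0.24 in Menthae Herba and -0.07 in Saposhnikoviae Radix. The high-dose libraries lay below the low-dose ones in Menthae Herba, Saengmaek-san and Okbyeongpung-san and overlapped them in the other 3. No extract's own dose contrast called it in the fit on all 57 libraries. With edgeR's test the Menthae Herba contrast did so in the earlier-numbered libraries alone (log2 -0.24, adjusted p = 0.0221). It also did so in a fit on the compared groups alone (log2 -0.25, adjusted p = 0.0466). ERN2 shares 42 of its 4998 exon bases with PLK1 on the other strand, whose counts are 982% of those of ERN2, and PLK1 had a log2 difference of 0.04 (adjusted p = 0.272).

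The other 5 genes did not pass in the mean dose contrast. SDF2L1 had a log2 difference of 0.07 (adjusted p = 0.221) and XBP1 of 0.04 (adjusted p = 0.108). HERPUD1, ERN1 and CRELD2 had differences of 0.02, 0.02 and 0.03. The 5 calls of HSPA5, HSP90B1, PDIA4, DNAJB9 and ERN2 were kept in each of 36 refits without 1 library of the contrast. They were also kept with the term for library numbering, where 12.5% of all genes passed. High- and low-dose libraries of the same number lie in the same part of the numbering in each extract except Guibi-tang.

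**Figure D3:**
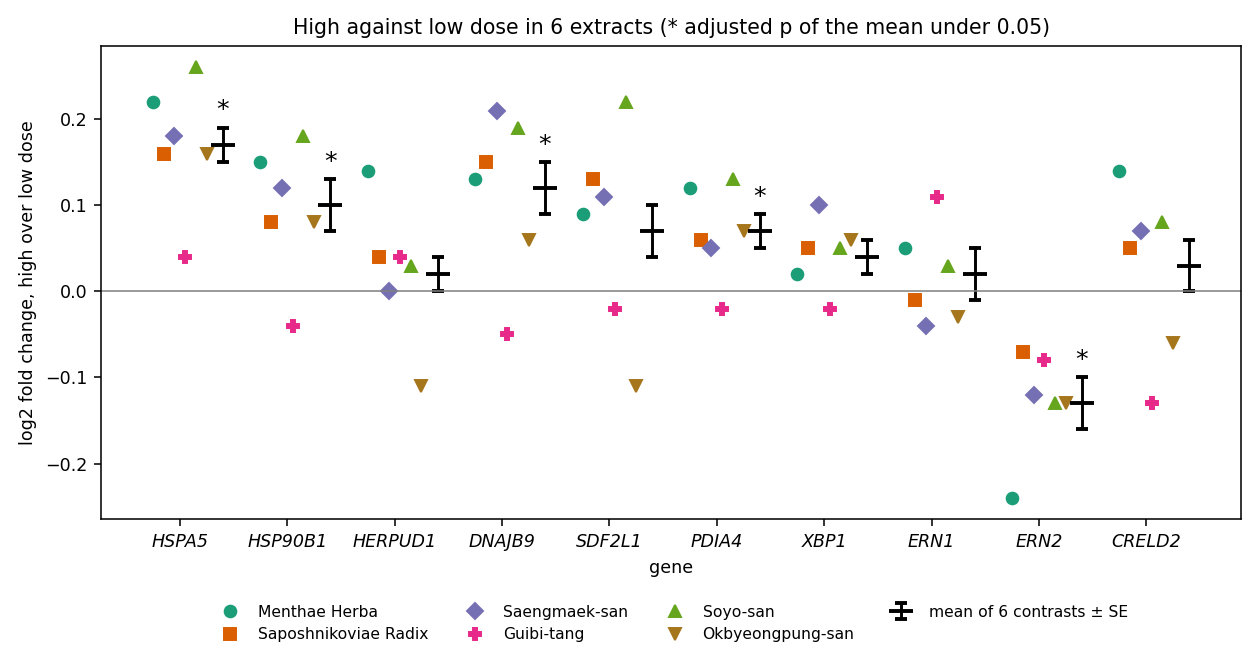
Log2 fold change of the high over the low dose (y axis) for each of the 10 genes in 6 extracts (coloured symbols) and as the mean of the 6 contrasts (black, with bars of 1 SE). Stars mark an adjusted p under 0.05 for the mean: HSPA5 (0.17), HSP90B1 (0.10), DNAJB9 (0.12) and PDIA4 (0.07) lie above 0 and ERN2 (-0.13) below it.

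Against vehicle, Menthae Herba at the high dose changed 2 of the 10 genes, 1 in each direction, where 8.57% of all genes passed. SDF2L1 had 14.5, 12.6 and 12.6 CPM, against 10.6, 10.6 and 9.5 CPM in vehicle. It rose by 0.37 on the log2 scale (SE 0.08, adjusted p = 0.00181), the largest increase of a member in any tested comparison. ERN2 had 17, 14.8 and 14.2 CPM, against 19.6, 19.2 and 18.9 CPM in vehicle. It fell by 0.33 (SE 0.08, adjusted p = 0.00341), and PLK1, its neighbour on the other strand, had a log2 difference of -0.06 (adjusted p = 0.569). Neither gene's libraries overlapped vehicle, and both calls were kept in each of 6 refits without 1 library and under each of 7 other settings. HSPA5 (log2 0.14, adjusted p = 0.0888) and PDIA4 (0.11) did not pass, although every high-dose library of HSPA5 lay above the vehicle range of 453 to 454 CPM. With the term for library numbering, 11.6% of all genes passed and 4 members did, HSPA5 (adjusted p = 0.0304) and PDIA4 (adjusted p = 0.0367) joining the 2.

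In Menthae Herba the ERN2 means were ordered by dose. Means were 19.3 ± 0.353 CPM in vehicle, 18.2 ± 0.864 CPM at the low, 16.1 ± 0.42 CPM at the medium and 15.3 ± 1.49 CPM at the high dose. At the medium dose all 3 libraries lay below vehicle (log2 -0.26, adjusted p = 0.0945, not called). No member was called by edgeR at the medium dose (0.739% of all genes passed) or at the low dose (0.0587%). At an unadjusted p under 0.05 the count was 1 at either dose, against 2372 of all 17049 genes at the medium and 1829 at the low dose. DESeq2 called 1 member at the medium and 0 at the low dose, against 293 and 80 of all genes. Of 10 tested genes of the goblet programme, 5 fell in the same high-dose libraries, none rose and 5 did not pass (median log2 -0.33, against 0.00 over all genes, of which 679 fell). MUC2, the gel-forming mucin, averaged 17.3 ± 0.351 CPM, against 29.3 ± 1.04 CPM in vehicle, and the disulfide isomerase AGR2 162 ± 1.8 CPM, against 198 ± 2.1 CPM in vehicle; these 2 genes were chosen after their values were seen. In bulk RNA, fewer cells of a mucous kind and less RNA per cell cannot be told apart, and the part of goblet genes in the ERN2 result was not tested.

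Soyo-san at the high dose changed 5 of the 10 genes, 4 up and 1 down, where 14.5% of all genes passed. HSP90B1 had 804, 811 and 747 CPM, against 602, 690 and 658 CPM in vehicle, and rose by 0.28 on the log2 scale (SE 0.07, adjusted p = 0.00317). PDIA4 had 459, 454 and 429 CPM, against 392, 397 and 380 CPM in vehicle, and rose by 0.20 (SE 0.04, adjusted p = 0.00187). Neither overlapped vehicle. SDF2L1 had 13.6, 11.5 and 12.3 CPM, against 10.6, 10.6 and 9.5 CPM in vehicle, and rose by 0.29 (SE 0.08, adjusted p = 0.0172). HSPA5 rose by 0.16 (SE 0.05, adjusted p = 0.0395), with 531, 517 and 468 CPM, against 453, 453 and 454 CPM in vehicle. HERPUD1, the degradation protein, went the other way with 30.1, 29.9 and 31.7 CPM, against 36.3, 36.5 and 36.2 CPM in vehicle. It fell by 0.25 (SE 0.05, adjusted p = 0.000876), and its 2 sets were far apart.

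Of the 4 increases, those of HSPA5, HSP90B1 and PDIA4 were smaller with the term for numbering, and that of SDF2L1 was not. Soyo-san libraries are all later-numbered and vehicle libraries all earlier, and with the term for numbering the call ended for HSPA5 (log2 0.05), HSP90B1 (0.11, adjusted p = 0.286), PDIA4 (0.09, adjusted p = 0.19) and SDF2L1 (0.30, adjusted p = 0.052). HERPUD1 kept its fall (-0.21, adjusted p = 0.0199), XBP1 passed with a fall of 0.14 (adjusted p = 0.0379), and 7.16% of all genes passed. With no filter on low counts HSPA5 lost its call (adjusted p = 0.0714). With the filter and without the term, HSPA5 kept its call only in the refit that left out Soyo-san replicate 3 (adjusted p = 0.01), with adjusted p up to 0.242 in the others. SDF2L1 lost its call without vehicle replicate 3 or Soyo-san replicate 1, with adjusted p up to 0.18. HSP90B1, PDIA4 and HERPUD1 kept theirs in all 6 refits.

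At the medium dose of Soyo-san 4 of the 10 genes passed, where 9.87% of all genes did. HSP90B1 (745, 777 and 756 CPM, log2 0.22, adjusted p = 0.0227), PDIA4 (436, 454 and 434 CPM, log2 0.18, adjusted p = 0.00752) and CRELD2 (20.1, 18.2 and 20.3 CPM, log2 0.22, adjusted p = 0.0363) rose. HERPUD1 (31.1, 31.4 and 33 CPM, log2 -0.19, adjusted p = 0.0148) fell. All 4 sets lay outside the vehicle values, which for CRELD2 were 15.8, 17.4 and 17.2 CPM. How many of all genes did so was not counted. With the term for numbering no member was called, where 2.97% of all genes passed. The calls also rested on single libraries: PDIA4 lost its call without Soyo-san replicate 2 (adjusted p up to 0.0599), HERPUD1 without Soyo-san replicate 1 or 2 (up to 0.0661), HSP90B1 without vehicle replicate 1 or 3 or Soyo-san replicate 2 (up to 0.162), and CRELD2 without vehicle replicate 1 or 3 or Soyo-san replicate 1 or 3 (up to 0.176). With no filter on low counts the CRELD2 call was lost too (adjusted p = 0.0795). CRELD2 shares 168 of its 5165 exon bases with ALG12 on the other strand, which had a log2 difference of 0.03 (adjusted p = 0.839).

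At the low dose of Soyo-san 2 of the 10 genes passed, both lower, where 3.93% of all genes did. HERPUD1 had 28.6, 32.2 and 29 CPM, against 36.3, 36.5 and 36.2 CPM in vehicle, and fell by 0.28 (SE 0.05, adjusted p = 0.000642), its largest difference. XBP1, the spliced factor, had 195, 195 and 204 CPM, against 215, 216 and 224 CPM in vehicle, and fell by 0.14 (SE 0.04, adjusted p = 0.0296). Both sets lay below vehicle. The XBP1 call was lost without vehicle replicate 2 or 3 or Soyo-san replicate 1 or 2 (adjusted p up to 0.133), and with no filter on low counts (0.0878). With the term for numbering 3 members passed (3.9% of all genes): XBP1 (-0.19), HERPUD1 (-0.24) and HSPA5, which was -0.22 with an adjusted p of 0.0112.

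Okbyeongpung-san gave values close to those of Soyo-san, and its libraries are later-numbered too. At the high dose 3 of the 10 genes passed, where 7.4% of all genes did. HSP90B1 had 800, 776 and 798 CPM, against 602, 690 and 658 CPM in vehicle, and rose by 0.28 (SE 0.07, adjusted p = 0.00568). PDIA4 had 450, 466 and 450 CPM, against 392, 397 and 380 CPM in vehicle, and rose by 0.22 (SE 0.04, adjusted p = 0.00121). HERPUD1 had 30.8, 32.4 and 27.7 CPM, against 36.3, 36.5 and 36.2 CPM in vehicle, and fell by 0.26 (SE 0.05, adjusted p = 0.00137). None of the 3 overlapped vehicle, and the share of all genes without overlap was not counted. With the term for numbering HERPUD1 remained the 1 member called (-0.22, adjusted p = 0.0309; 2.35% of all genes), while HSP90B1 (0.11, adjusted p = 0.357) and PDIA4 (0.12, adjusted p = 0.142) did not pass. Without vehicle replicate 1 the HSP90B1 call was lost (adjusted p = 0.0701).

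At the medium dose of Okbyeongpung-san HERPUD1 was the 1 member to pass, where 3.75% of all genes did. It had 29, 31 and 31.5 CPM, all below vehicle, and fell by 0.25 (SE 0.05, adjusted p = 0.003), or by 0.22 with the term for numbering (1.96% of all genes). At the low dose 4 of the 10 genes passed, where 8.79% of all genes did. HSP90B1 rose by 0.20 (732, 695 and 813 CPM, adjusted p = 0.0444), PDIA4 by 0.15 (434, 420 and 443 CPM, adjusted p = 0.0257) and CRELD2 by 0.23 (19.1, 18.6 and 21.1 CPM, adjusted p = 0.0355), while XBP1 fell by 0.12 (190, 201 and 211 CPM, adjusted p = 0.0498). Each of these 4 low-dose sets lay outside the vehicle range, for which no share of all genes was counted. With the term for numbering XBP1 alone passed (-0.16, adjusted p = 0.021; 4.94% of all genes). Without vehicle replicate 1 or 3 or Okbyeongpung-san replicate 1 or 3 the 3 increases lost their calls (adjusted p up to 0.33). Among these refits XBP1 kept its call only without Okbyeongpung-san replicate 3, and its adjusted p reached 0.28. With no filter on low counts PDIA4 (adjusted p = 0.136), CRELD2 (0.0854) and XBP1 (0.158) lost their calls, and in a fit on the compared groups alone HSP90B1 did (0.0527).

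Saposhnikoviae Radix and Saengmaek-san gave no call among the 10 genes in edgeR at any dose against vehicle. For Saposhnikoviae Radix 0.499% of all genes passed at the high, 0.0293% at the medium and 0.17% at the low dose. The count at an unadjusted p under 0.05 was 1, 1 and 0 members at these doses, against 1969, 1572 and 1821 of all 17049 genes. For Saengmaek-san 4.28%, 0.416% and 0.0938% of all genes passed at the high, medium and low dose. At an unadjusted p under 0.05 there were 2, 2 and 1 members, against 3307, 2171 and 1284 of all 17049 genes. DESeq2 called none of the 10 in these 6 comparisons. Of all genes it called 167, 35 and 87 for Saposhnikoviae Radix and 1047, 190 and 41 for Saengmaek-san. SDF2L1 had the smallest adjusted p among the members in the high-dose comparison of Saposhnikoviae Radix, with 12, 13.2 and 12.1 CPM, against 10.6, 10.6 and 9.5 CPM in vehicle (log2 0.28, adjusted p = 0.111). Those values did not overlap vehicle.

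In Guibi-tang SDF2L1 was the 1 member called, at the medium dose, where 1.07% of all genes passed. It had 12.3, 13.2 and 12.9 CPM, against 10.6, 10.6 and 9.5 CPM in vehicle, and rose by 0.32 (SE 0.08, adjusted p = 0.0371). The 2 sets were apart, but the call was kept in 1 of 6 refits only, the one without Guibi-tang replicate 1, with adjusted p up to 0.211 in the others. It was also lost with the term for numbering, at a log2 difference of 0.33, in the earlier-numbered libraries alone (adjusted p = 0.526) and in a fit on the compared groups alone (0.102). At the high dose (2.26% of all genes) and the low dose (0.85%) edgeR and DESeq2 called no member, and DESeq2 called 505 and 240 genes in all. In edgeR 1 and 3 members had an unadjusted p under 0.05, against 2694 and 2429 of all 17049 genes.

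**Figure D4:**
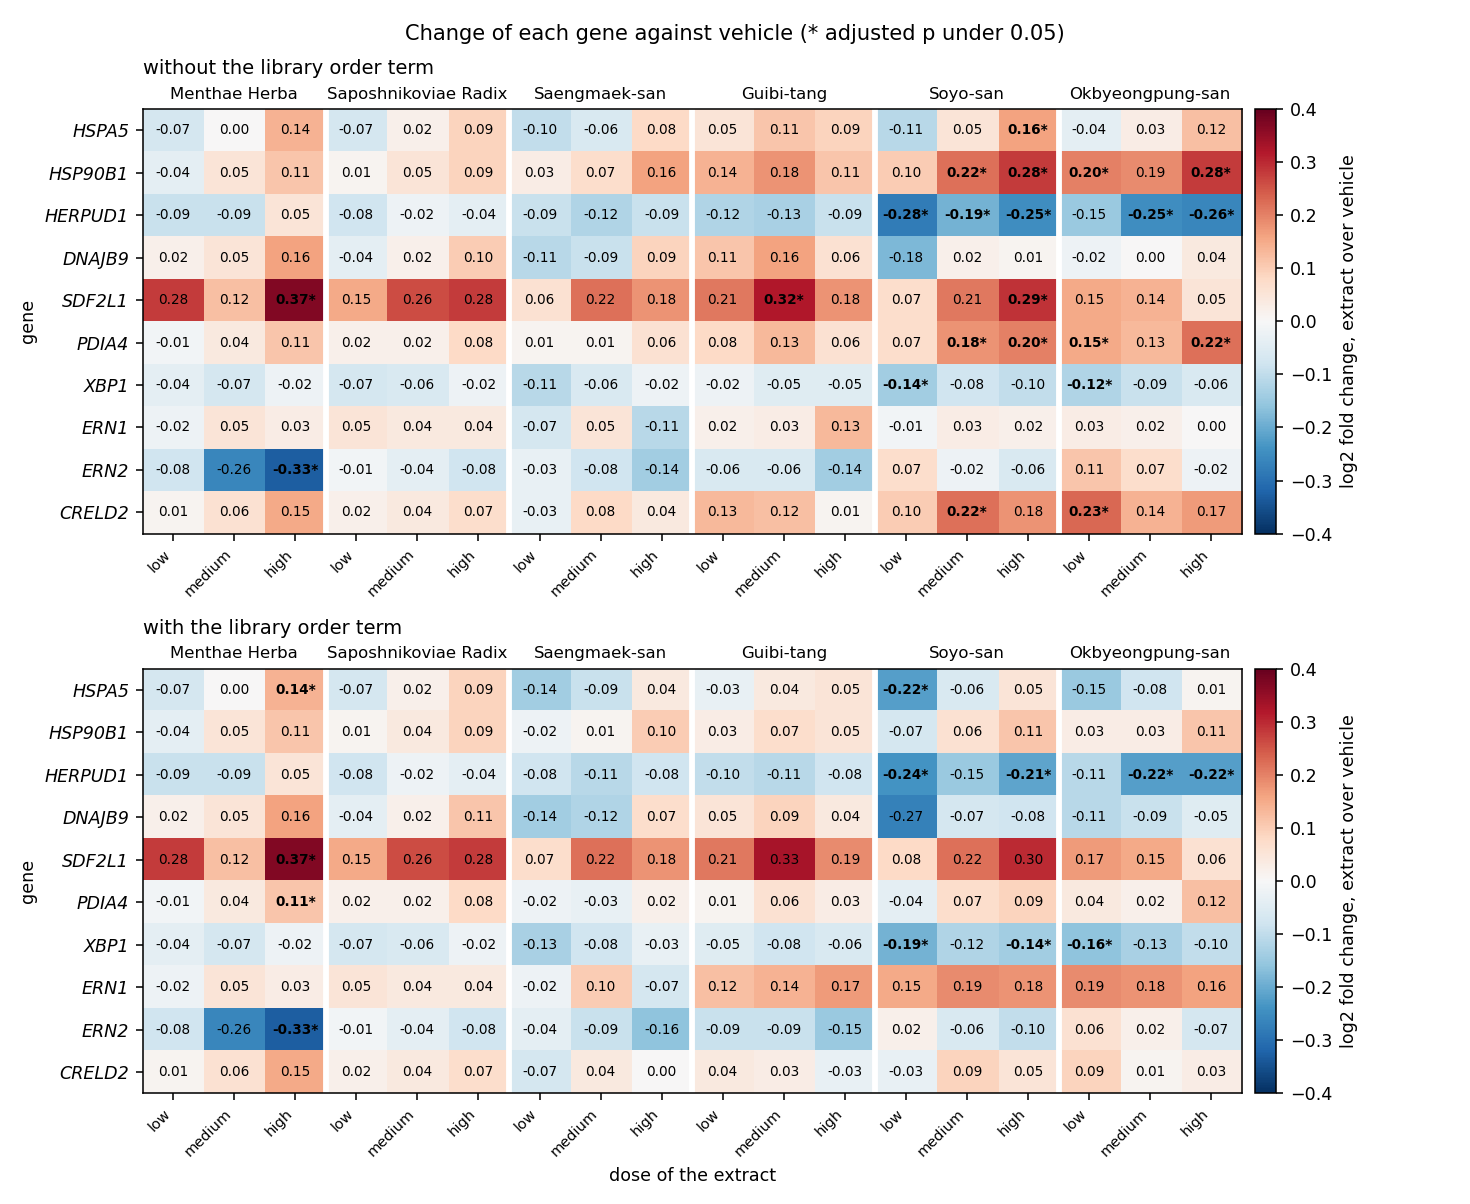
Log2 fold change of each extract and dose over vehicle for the 10 genes, without (top) and with (bottom) a term for library numbering. Red is higher and blue lower than vehicle, and stars mark an adjusted p under 0.05. The stars of HSP90B1, PDIA4 and CRELD2 in Soyo-san and Okbyeongpung-san appear in the top panel alone, those of HERPUD1 at the low and high doses of Soyo-san and the medium and high doses of Okbyeongpung-san in both.

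The difference between later- and earlier-numbered libraries was itself measured for each gene. The 2 parts were set by the first principal component over all tested genes, members among them, in these same libraries. The p-values here therefore test a split drawn from the tested values and are no independent test. HSP90B1 was higher in later libraries by 0.17 on the log2 scale (SE 0.03, adjusted p = 1.62e-05), CRELD2 by 0.13 (SE 0.04, adjusted p = 0.00811), and HSPA5 (adjusted p = 0.00156) and PDIA4 (adjusted p = 0.000101) by 0.11. ERN1 was lower by 0.16 (SE 0.04, adjusted p = 0.00173). HERPUD1 (-0.04), SDF2L1 (-0.01), XBP1 (0.04), ERN2 (0.05) and DNAJB9 (0.09) did not differ past the threshold. Within Guibi-tang at the high dose, HSP90B1 had 788 CPM in the 1 later library and 684 and 628 CPM in the 2 earlier ones. Among all genes 2719 were higher and 2334 lower in later libraries. In the comparisons of Soyo-san and Okbyeongpung-san with vehicle, extract and numbering cannot be told apart from those libraries alone.

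**Figure D5:**
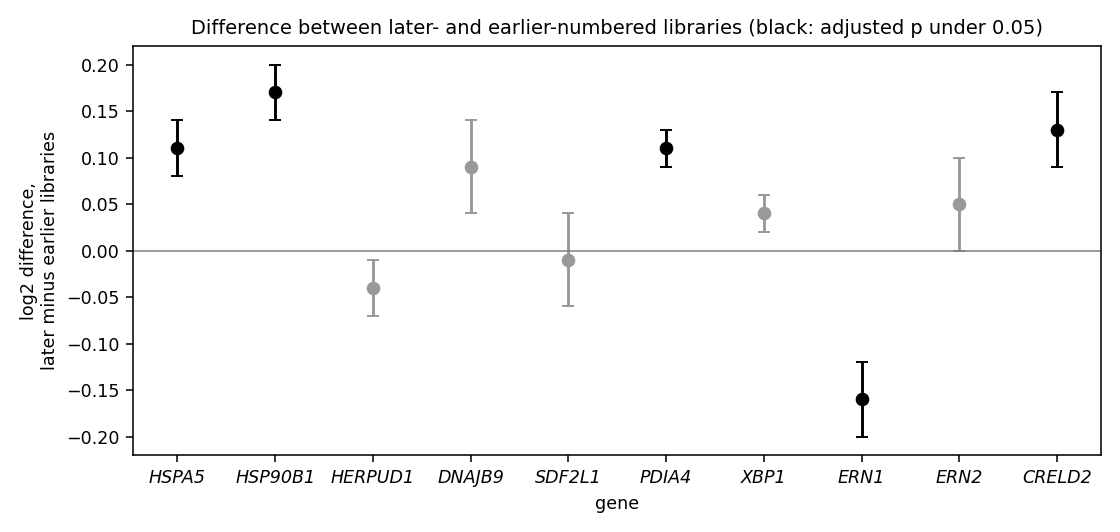
Log2 difference between later- and earlier-numbered libraries (y axis, bars of 1 SE) for each of the 10 genes, as estimated from Saengmaek-san and Guibi-tang. Black points passed the test: HSP90B1 (0.17), CRELD2 (0.13), HSPA5 (0.11) and PDIA4 (0.11) were higher and ERN1 (-0.16) lower in later libraries.

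All 18 comparisons with vehicle share its 3 libraries, so their signs are not independent of each other. With that limit, SDF2L1 lay between 0.05 (Okbyeongpung-san, high dose) and 0.37 (Menthae Herba, high dose) on the log2 scale, with 3 calls. XBP1 lay between -0.14 and -0.02, with 2 calls, and HERPUD1 between -0.28 and 0.05, with 5 calls, all in the later-numbered formulas. HSP90B1 lay between -0.04 and 0.28 and PDIA4 between -0.01 and 0.22, with 4 calls each. ERN1 lay between -0.11 and 0.13 and DNAJB9 between -0.18 and 0.16, neither ever called against vehicle. HSPA5 lay between -0.11 and 0.16 and ERN2 between -0.33 and 0.11, with 1 call each. CRELD2 lay between -0.03 and 0.23, with 2 calls.

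Other genes of the pathway were read from lists written from general knowledge, with earlier results of these data known. In the mean contrast of high over low dose, 8.46% of all genes passed. Of 22 further ER folding and redox genes 8 rose and none fell (median log2 0.05, against 0.00 over all genes). MANF, a stress-induced ER protein, rose by 0.15 (38.9 ± 2.94 CPM at the high dose and 35.2 ± 2.87 CPM at the low dose, adjusted p = 0.00322). HYOU1, the nucleotide exchange factor of BiP, rose by 0.06 (adjusted p = 0.0135) and DNAJB11, a J-domain partner of BiP, by 0.10 (adjusted p = 0.0413). Of 20 genes of ER-associated degradation 4 rose and none fell, among them SEL1L, the scaffold of the HRD1 ligase (0.05, adjusted p = 0.0409). Of 22 genes of translocation and ER export 1 rose and 1 fell. Named genes of this paragraph were chosen after their values were seen.

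For sensors and the PERK arm the share called was near that of all genes in the same contrast (8.46%), of which 741 rose and 702 fell. Of 11 tested sensors and transducers none rose and 1 fell, CREB3L1, a membrane-bound factor (159 ± 11.2 CPM at the high dose and 178 ± 9.2 CPM at the low dose, log2 -0.17, adjusted p = 0.00203). Of 15 genes of the PERK, ATF4 and CHOP arm none rose and 1 fell, DDIT4, a stress-induced inhibitor of mTORC1 (-0.18, adjusted p = 0.000805), which was chosen after its values were seen. Of 12 cytosolic heat shock genes 4 rose and none fell, HSPH1 by 0.10 (adjusted p = 0.0113). Of 10 goblet genes 5 fell, none rose and 5 did not pass (median log2 -0.14), MUC2 having a log2 difference of -0.24 (adjusted p = 0.0147). With the term for numbering the counts were 11 of 22 folding genes, 5 of 20 degradation genes and 7 of 12 heat shock genes higher, 6 of 10 goblet genes lower, and 1 higher and 2 lower of the PERK arm. With that term 12.5% of all genes passed. ERSE was found in the windows of CALR, CANX, ERO1B and PDIA6 among 21 folding genes and ERSE-II in that of HYOU1, while the 16 degradation genes with a window held neither.

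Against vehicle, the high dose of Menthae Herba raised 7 of 22 folding genes and lowered none (median log2 0.10), where 8.57% of all genes passed. DNAJC3, an inhibitor of PERK that also serves BiP, rose by 0.23 (105 ± 3.33 CPM, against 89.4 ± 5.28 CPM in vehicle, adjusted p = 0.0049), and DNAJC10, a reductase with a J domain, by 0.19 (adjusted p = 0.00307). Of the PERK arm 2 of 15 rose: TRIB3, a pseudokinase that ATF4 and CHOP induce (0.29, adjusted p = 0.001), and ASNS, the asparagine synthetase (0.13, adjusted p = 0.0466). CREB3L1 fell by 0.45 (151 ± 2.16 CPM, against 206 ± 10.1 CPM in vehicle, adjusted p = 0.00084). In Soyo-san 10 of 22 folding genes rose at the high dose, where 14.5% of all genes passed. With the term for numbering 3 of 22 rose, where 7.16% passed. Without the term the lectin chaperone CANX rose by 0.17 (adjusted p = 0.00257). KDELR1, a receptor that returns chaperones to the ER, fell in Soyo-san by 0.32 (adjusted p = 0.00122), also without the term. In Okbyeongpung-san 3 of 22 folding genes rose and 1 fell, and with the term for numbering 3 rose and none fell. The share of all genes called was 7.4% without and 2.35% with the term. At the high dose of Saposhnikoviae Radix, Saengmaek-san and Guibi-tang edgeR called no folding gene, and with the term for numbering it called 1, 2 and 2 higher. Of all 17049 genes, 85, 730 and 385 passed without the term and 200, 1089 and 617 with it.

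Of the 11 sensors and transducers, 2 fell at the high dose of Menthae Herba against vehicle, 3 in Saengmaek-san, 1 in Guibi-tang, 3 in Soyo-san (where 2 rose), 3 in Okbyeongpung-san and none in Saposhnikoviae Radix. The share of all genes called was 8.57% in Menthae Herba, 4.28% in Saengmaek-san, 2.26% in Guibi-tang, 14.5% in Soyo-san, 7.4% in Okbyeongpung-san and 0.499% in Saposhnikoviae Radix. CREB3L1 fell in Menthae Herba, Saengmaek-san (-0.38, adjusted p = 0.0114), Guibi-tang (-0.37, adjusted p = 0.0148), Soyo-san (-0.40, adjusted p = 0.0024) and Okbyeongpung-san (-0.29, adjusted p = 0.0381), and was -0.35 without a call in Saposhnikoviae Radix (adjusted p = 0.064). EIF2AK3, which encodes PERK, fell by 0.24 in Soyo-san (adjusted p = 0.00433) and by 0.20 in Okbyeongpung-san (adjusted p = 0.0311). LMAN1, a receptor that carries cargo from the ER to the Golgi, rose in Menthae Herba (0.19), Saposhnikoviae Radix (0.17), Saengmaek-san (0.16), Soyo-san (0.18) and Okbyeongpung-san (0.16), as a gene of the export list. SEC24D, a coat protein of the export vesicles, fell by 0.36 in Soyo-san (adjusted p = 4.11e-06) and by 0.30 in Okbyeongpung-san (adjusted p = 0.00021). UBE2J1, a ubiquitin-conjugating enzyme of degradation at the ER, rose by 0.23 in Soyo-san (adjusted p = 0.000373) and by 0.21 in Okbyeongpung-san (adjusted p = 0.002). SESN2, a stress gene of the PERK arm, fell in Guibi-tang (-0.30), Soyo-san (-0.23) and Okbyeongpung-san (-0.30). These comparisons share the vehicle libraries, and the values come from the fit without the term for numbering. Libraries of Soyo-san and Okbyeongpung-san are all later-numbered and those of vehicle all earlier. For these 2 formulas extract and numbering cannot be told apart here.

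Extracts with libraries in the same part of the numbering were compared directly at the high dose. Menthae Herba against Saposhnikoviae Radix gave no call by edgeR or DESeq2 among the 10 genes in the fits on all 57 libraries. Of all genes 1.1% passed in edgeR, DESeq2 called 239, and 1568 had an unadjusted p under 0.05 in edgeR. At that last threshold there was 1 member. That was ERN2, with 17, 14.8 and 14.2 CPM in Menthae Herba, against 18.1, 18 and 18.3 CPM in Saposhnikoviae Radix (log2 -0.24, SE 0.08, adjusted p = 0.131), and the 2 sets were apart. Guibi-tang against Saengmaek-san (0.37% of all genes) had ERN1 as the 1 member with an unadjusted p under 0.05 (log2 0.24, SE 0.07, adjusted p = 0.306), and edgeR and DESeq2 called none. Of all genes, 1011 had an unadjusted p under 0.05 in edgeR there, and DESeq2 called 65. In Soyo-san against Okbyeongpung-san edgeR called 0% of all genes and no member, while SDF2L1 had an unadjusted p under 0.05 (log2 0.24, SE 0.09, adjusted p = 1). DESeq2 called no member there either, and 2 genes in all, and 760 genes had an unadjusted p under 0.05 in edgeR. For HSPA5 the 3 log2 differences were 0.05, 0.01 and 0.03, each with an SE of 0.05.

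Soshiho-tang had 1 library per dose and no test, and all 3 are later-numbered. At the high dose HSPA5 (608 CPM), HSP90B1 (868 CPM), PDIA4 (484 CPM) and DNAJB9 (12.1 CPM) lay above all 57 libraries of the tested groups. Their ratios to the vehicle mean were 1.34, 1.34, 1.24 and 1.27. ERN2 (14 CPM, ratio 0.726) lay below all 57. How many of all genes lay outside the 57 in this 1 library was not counted. These members are also the 5 called in the mean dose contrast of the other extracts, and nothing is drawn from that match. At the medium dose HSPA5 had 472 CPM and at the low dose 424 CPM, both within the range of the 57 libraries. HERPUD1 had 29 CPM at the low, 28.7 CPM at the medium and 32.5 CPM at the high dose, all below the 3 vehicle libraries.

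Across the 19 group means, members followed each other in blocks. HSP90B1 and PDIA4 had a Pearson r of 0.96, and CRELD2 went with them (0.84 with HSP90B1 and 0.88 with PDIA4). HSPA5 and DNAJB9 had an r of 0.79, and DNAJB9 and XBP1 of 0.72. HERPUD1 was opposed to HSP90B1 (-0.65) and ERN2 to DNAJB9 (-0.58). HSP90B1, PDIA4 and CRELD2 share a higher level in later-numbered libraries, so these values describe the groups and their numbering together. Outside the members, among 10388 genes of at least 5 CPM, the means most like HSPA5 were those of POLR2F (r = 0.873), HYOU1 (0.849) and MANF (0.837). For DNAJB9 they were POMGNT2 (0.85), MRPL36 (0.845) and HSPH1 (0.835), and for ERN2 PLXNB1 (0.938), KATNIP (0.926) and MCF2L (0.921).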

How the data were processed

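RNA sequencing measured gene expression in 60 libraries of HT29 cells. Libraries were made with a directional kit from RNA with an integrity number above 7 and read as pairs of 100 bases, per the labels' protocols. The authors deposited expected counts per gene, which RSEM 1.3.3 gives on GRCh38, per the submitters' processing notes, which further name STAR 2.7.3a, Trim Galore 0.6.5 and FastQC 0.11.9. Neither the release of the annotation nor the strand setting of the counting is given in the sources used here. RSEM shares out reads that fit more than 1 gene, so 27.7% of values above 0 were not whole numbers, and all were rounded. Groups came from sample titles, and columns were matched by sample description.

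In R 4.3.3, edgeR 4.0.16 (filterByExpr, TMM, robust quasi-likelihood test) was fitted to 57 libraries in 19 groups, which left 38 residual degrees of freedom, and Soshiho-tang, with 1 library per dose, entered no test. The filter kept 17049 genes with 99.95% of counts. All p-values were adjusted over these genes by Benjamini-Hochberg, at a threshold of 0.05. There were 27 comparisons: 18 of a dose with vehicle, 6 between doses of an extract and 3 between extracts. A mean of the 6 dose contrasts was added after the values had been seen. CPM use TMM-scaled library sizes. Groups are called apart where the CPM of their libraries do not overlap. This was not counted over all genes, so no share stands beside it. The fit was run on simulated data with planted changes larger than any of a member in the tested comparisons, and with no difference by library numbering. It therefore does not show how the fit handles changes as small as those of the members. The 10 members, the other lists, the tests and the library parts were chosen with earlier results of these data known. The rule for other genes took, per list and high-dose comparison with vehicle, up to 3 called genes with the smallest p, and, for 3 members, the 3 genes with the most similar group means. Genes named outside it are marked as chosen after their values were seen. Promoter sequences are from RefSeq's table for GRCh38.p14, which held windows for 9 members. Alternatives were DESeq2's size factors, DESeq2 1.42.0's own test, no filter, a fit on the compared groups alone, a replicate block, a term for library numbering, the earlier libraries alone, and leaving out each library.

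Same-numbered libraries were checked for pairing by the correlation of their deviations from group means. All 3 were above 0.1 in 1 comparison only, Guibi-tang against Saengmaek-san at the high dose (0.144, 0.129 and 0.286), where replicates 1 and 2 are earlier-numbered and replicate 3 later-numbered in both groups, so the numbering and a pairing cannot be told apart. No 2 libraries of a group agreed within sampling noise (lowest ratio of chi-square to degrees of freedom 1.85 over 57 pairs).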

Additional observations from a re-analysis of the deposited data

Results flagged for a closer look

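In libraries outside the tested groups, 4 values stood above the vehicle libraries and above all 57 libraries of the tested groups. They are all from the single high-dose library of Soshiho-tang, which is later-numbered and has no replicate. How many of all genes stood above the 57 in that library was not counted. HSPA5 had 608 CPM there, against 453 to 454 CPM in vehicle and at most 531 CPM in any of the 57. HSP90B1 had 868 CPM, against 602 to 690 CPM in vehicle and at most 813 CPM. PDIA4 had 484 CPM, against 380 to 397 CPM in vehicle and at most 466 CPM. DNAJB9 had 12.1 CPM, against 9.36 to 9.77 CPM in vehicle and at most 11.7 CPM. With 1 library, a dose effect and a difference of that library cannot be told apart, and HSP90B1, HSPA5 and PDIA4 are among the genes higher in later-numbered libraries.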

How the results depend on the processing

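No called value changed sign under any setting run. The share of all genes called is not given here for the earlier libraries alone, the compared groups alone, no filter or the leave-out refits. Member counts under those settings therefore cannot be set against a change in calls over all genes. With a term for library numbering the count of called members was 4 (2 without it) in Menthae Herba at the high dose, 2 (5) in Soyo-san at the high and 0 (4) at the medium dose, 1 (3) in Okbyeongpung-san at the high and 1 (4) at the low dose, and 0 (1) in Guibi-tang at the medium dose, all against vehicle; the cause was not tested. With the earlier-numbered libraries alone and with a fit on the compared groups alone it was 4 and 4 (2) in Menthae Herba at the high dose, 1 and 1 (0) at the medium dose, 0 and 0 (1) in Guibi-tang at the medium dose, 4 and 3 (1) for high against low dose of Menthae Herba, 1 and 1 (0) for that of Saposhnikoviae Radix, and 1 and 1 (0) between these herbs. The groups alone also gave 1 (0) in Menthae Herba at the low dose, and 2 (0) at the high and 1 (0) at the medium dose of Saposhnikoviae Radix. With no filter the count was 1 (0) in Menthae Herba at the medium dose, 2 (1) in Guibi-tang at the medium, 1 (2) in Soyo-san at the low, 4 (5) at its high and 3 (4) at its medium dose, 2 (1) in Okbyeongpung-san at the medium and 1 (4) at its low dose, and 4 (5) in the mean dose contrast. DESeq2's test gave 1 (0) in Menthae Herba at the medium dose, 6 (5) in Soyo-san at the high and 5 (4) in Okbyeongpung-san at the low dose, and the same count elsewhere. Of all 17049 genes it called 293, 2564 and 1760 in the comparisons named, in that order. Leaving out 1 library gave 3 to 5 members in Soyo-san at the high, 1 to 4 at the medium and 1 to 2 at the low dose, 2 to 3, 1 to 3 and 0 to 3 in Okbyeongpung-san at the high, medium and low dose, 0 to 1 in Guibi-tang at the medium dose, 0 to 1 for high against low dose of Menthae Herba and of Soyo-san and for Menthae Herba against Saposhnikoviae Radix, and the same count as with all libraries elsewhere, 5 to 5 in the mean dose contrast. The replicate block changed no call: all 280 values of single genes kept their direction and side of the threshold, whatever the pairing. DESeq2's size factors also kept all 280.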
